A study of Mus musculus with 6 samples.

Results

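The nuclear-encoded oxidative phosphorylation genes are the genes of the nuclear genome that specify subunits of the 5 protein complexes of the inner mitochondrial membrane, together with a few of their close relatives. They were chosen by symbol, as the protein-coding genes whose symbol begins with Nduf, Uqcr, Atp5 or Cox followed by a digit from 4 to 8, or is *Sdha*, *Sdhb*, *Sdhc* or *Sdhd*, and no measured value was used. The rule gave 92 of the 53342 genes of the deposited table, of which 21950 were protein-coding. By name, 38 belong to complex I, 4 to complex II, 8 to complex III, 18 to complex IV and 16 to complex V, and 8 are Ndufaf genes, whose products help to assemble complex I without staying in it. *Ndufa4* and *Ndufa4l2* carry complex I names, although the NDUFA4 protein is now known as a subunit of complex IV, and they are counted under their names unless stated. *Cox7a2l*, a factor that joins complexes III and IV, and *Atp5s*, a coupling factor, were kept because the rule takes them in.

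RNA was sequenced from dental pulp of 3 WT mice and 3 MMP13KO mice, the latter homozygous for a deficient Mmp13 allele (Mmp13-/-), all on the C57BL/6 strain and 3 months of age, with males named in the methods of the study and no treatment in either group. The deficiency is not restricted to pulp cells. The titles of the WT samples name molars, those of the MMP13KO samples name no tooth, and the methods of the study name incisors. Which tooth was used in each genotype, and whether it was the same, was not settled here. The study describes the libraries as independent biological samples, numbered 2, 4 and 5 in WT and 1, 2 and 6 in MMP13KO, and values per sample are given below in that order. MMP13 is a collagenase that cuts fibrillar collagen in mineralizing tissue, and the study asked how its loss alters gene expression in the pulp.

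Complexes I to IV form the respiratory chain. Complex I takes electrons from NADH and complex II from succinate, ubiquinone carries them to complex III, cytochrome c carries them to complex IV, and complex IV passes them to oxygen. Proton pumping by complexes I, III and IV drives complex V, the ATP synthase. Several subunits of complex IV exist as paired isoforms from separate genes, with a general form in most tissues and a form found mainly in heart and skeletal muscle (*Cox6a2*, *Cox7a1* and *Cox8b*) or in testis (*Cox6b2*, *Cox7b2* and *Cox8c*). Promoters of these genes are known for sites of the factors NRF1 and GABPA, which control nuclear genes of the mitochondrion.

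A promoter sequence, from 250 bases before to 50 bases after the start, was found for 76 of the 92 members in RefSeq on GRCm38.p6. Of these, 10 (13.2%) held the letters CGCATGCGC known for NRF1 on either strand (all letters below were searched on both strands), against 1.95% of 27025 genes with a promoter in the table. The letters CCGGAAG, known for GABPA and other ETS factors, stood in 18 (23.7%) against 9.93%, those of YY1 (AAGATGGC) in 11 (14.5%) against 3.19%, and those of the oestrogen-related receptors (AAGGTCA) in 8 (10.5%) against 5.38%. The MEF2 letters TAAAAATA stood in 0 of the 76 against 3.09%, and the E-box CAGCTG in 6 (7.89%) against 18.3%. The 6 sets of letters do not contain each other, and a match is a description of the window and not of binding. CG pairs were frequent in the members' promoters, with a median of 20 in 300 bases against 7 over all promoters.

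Promoters of an isoform pair of subunit VIIa whose ratio differed between the genotypes, *Cox7a1* (chr7:30183921-30184220, plus strand) and *Cox7a2* (chr9:79759804-79760103, minus strand), are shown first, 5′ to 3′ on the strand of the gene, with CG pairs in capitals. The muscle isoform gene has 7 CG pairs and the general isoform gene 20, and neither window holds any of the 6 sets of letters.
Cox7a1: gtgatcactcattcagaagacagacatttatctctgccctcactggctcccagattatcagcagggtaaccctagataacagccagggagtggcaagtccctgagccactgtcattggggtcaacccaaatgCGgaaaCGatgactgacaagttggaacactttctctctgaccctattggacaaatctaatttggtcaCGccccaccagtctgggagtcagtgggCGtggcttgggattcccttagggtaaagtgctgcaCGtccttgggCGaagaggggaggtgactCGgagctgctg
Cox7a2: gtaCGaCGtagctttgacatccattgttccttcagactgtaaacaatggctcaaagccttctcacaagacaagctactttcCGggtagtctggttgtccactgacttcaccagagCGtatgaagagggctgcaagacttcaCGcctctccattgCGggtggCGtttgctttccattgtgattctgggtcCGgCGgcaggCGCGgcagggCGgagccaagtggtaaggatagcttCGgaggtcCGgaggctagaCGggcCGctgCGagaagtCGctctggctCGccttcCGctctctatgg

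The NRF1 letters were found both in members that rose and in members that fell in MMP13KO. They stood in 1 of the 12 higher members with a promoter and in 6 of the 31 lower ones. The member of each kind with the smallest adjusted p is shown, *Atp5l* (chr9:44920693-44920992, minus strand) and *Uqcrc1* (chr9:108936398-108936697, plus strand), with the NRF1 letters in capitals, where matches on both strands of *Uqcrc1* overlap.
Atp5l: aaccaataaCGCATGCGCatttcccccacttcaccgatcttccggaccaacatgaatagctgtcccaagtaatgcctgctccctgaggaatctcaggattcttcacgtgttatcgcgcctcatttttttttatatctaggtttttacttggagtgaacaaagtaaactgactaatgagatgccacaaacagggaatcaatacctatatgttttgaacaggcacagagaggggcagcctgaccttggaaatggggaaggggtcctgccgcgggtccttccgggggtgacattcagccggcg
Uqcrc1: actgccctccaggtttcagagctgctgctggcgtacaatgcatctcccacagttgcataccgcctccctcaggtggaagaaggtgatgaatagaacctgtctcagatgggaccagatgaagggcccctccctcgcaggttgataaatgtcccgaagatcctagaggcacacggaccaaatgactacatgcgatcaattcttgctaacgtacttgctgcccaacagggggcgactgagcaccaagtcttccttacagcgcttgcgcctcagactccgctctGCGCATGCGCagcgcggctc

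The libraries held 28442936 to 29980236 counts in WT and 21561420 to 26547121 in MMP13KO. Counts at Mmp13 were 1069, 1139 and 827 in WT and 10.2, 32.9 and 40.4 in MMP13KO, a log2 fold change of −4.96 (edgeR adjusted p = 7.67e-05). A set of 13 satellite-like genes took 0.0331 to 0.0445% of the counts in WT but 5.87, 10.3 and 46.1% in MMP13KO 1, 2 and 6. These genes share over 50% of their sequence, in words of 16 bases, with the most counted gene of MMP13KO 6. As that gene was chosen by its counts in MMP13KO 6, the excess there is partly built in. Odorant and vomeronasal receptor genes, which pulp is not known to use, stood at 0.0946 to 0.116 estimated counts per kb of exon in WT and 1.50 to 4.80 in MMP13KO. In bulk tissue, fewer cells of a type and less RNA per cell cannot be told apart, and p-values measure the spread between these samples only.

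Of the 92 members, 90 passed the filter on low counts. *Cox7b2* and *Cox8c*, isoforms of testis, did not, with 0 counts in every WT sample and, in MMP13KO, normalized counts of 0.863, 2.14 and 7.55 for *Cox7b2* and 7.02, 0.512 and 2.10 for *Cox8c*, while the summed level of 8 spermatogenic markers was 0.474 to 0.804 CPM in WT and 1.62 to 3.97 CPM in MMP13KO. *Prm1*, *Tnp1* and *Tnp2*, which define sperm cells, stayed under 10 normalized counts in every sample, and no fold change is given for the isoforms. The other members were well covered, 90 of the 92 with over 30 counts in every sample and 84 with over 100.

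In complexes I, III, IV and V some members were higher and others lower. With edgeR's quasi-likelihood test and Benjamini-Hochberg adjustment over all 24534 genes tested, 15 members were higher and 38 lower in MMP13KO at an adjusted p under 0.05, and 37 were not called. Scaled by total counts alone, satellite-like genes included, 13 were higher and 15 lower. Over all genes tested, 27.3% were higher and 24.3% lower. Over 2-fold, 10 members were higher and 16 lower, against 20.4% and 9.68% of all genes. In 13 members every MMP13KO sample lay above every WT sample and in 40 every MMP13KO sample lay below, against 31.8% and 29.1% of all genes. The members' median log2 fold change was −0.30, where that of all genes was 0.10, and after a correction for GC content the members' median turned to 0.16 and that of all genes to 0.38.

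The calls differed with the GC content of the transcripts. Across the 90 members Spearman's rho between log2 fold change and GC content was −0.42, and across 16983 protein-coding genes tested it was −0.57, a description over genes that share the same 6 libraries. When each library was corrected for GC content by a loess fit, 31 members were higher and 17 lower, against 29.5% and 7.94% of all genes. All 15 members that had been higher remained higher and called. Of the 38 that had been lower, 16 remained lower and called and 2 became higher and called. The rest lost their calls, some staying below 0, such as *Ndufs7*, and some moving above 0, such as *Cox4i2*, *Uqcr11* and *Sdhb*. Whether GC content, rather than genotype, sets the differences of the other members was not tested.

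**Figure D1:**
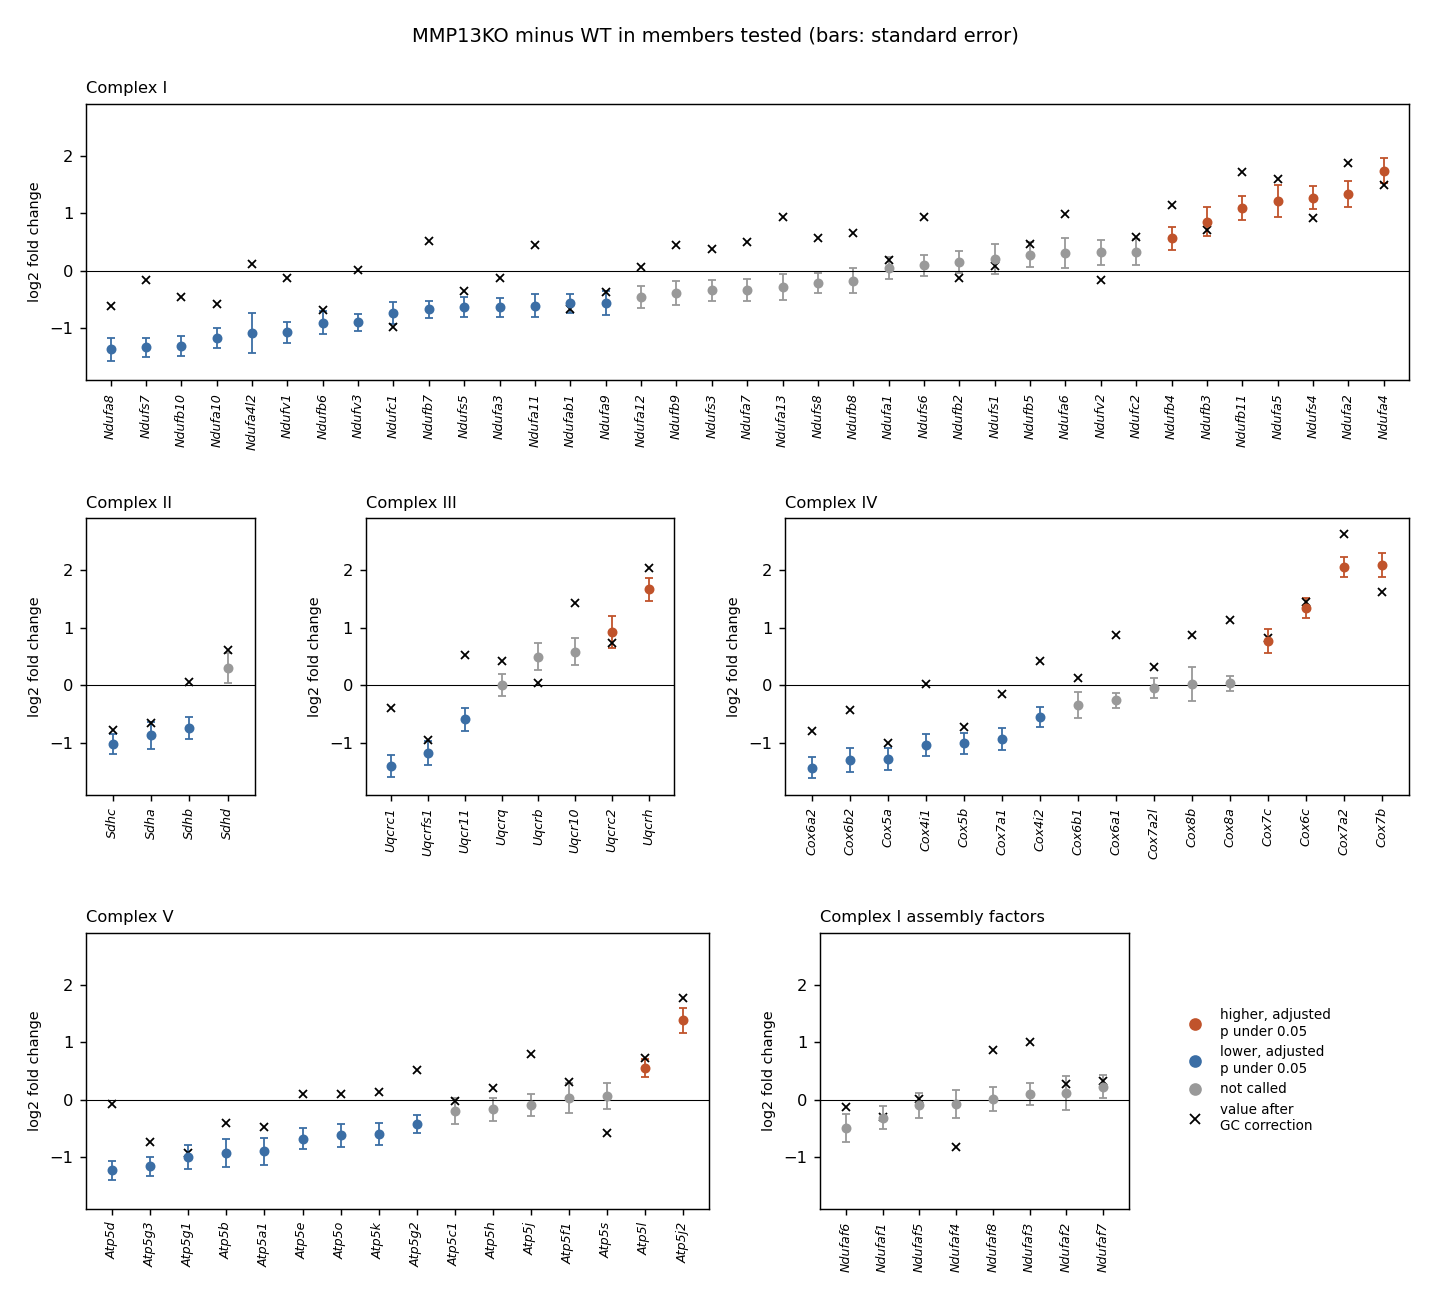
Log2 fold change, MMP13KO minus WT, of the members tested and reported here, by complex, with bars for the standard error and colours for calls at an adjusted p under 0.05 (edgeR). Crosses give the value after GC correction, which lies above the uncorrected one for most of the lower members, and in complexes I, III, IV and V calls in both directions stand side by side.

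Complex I oxidizes NADH through a core of catalytic subunits, of which the nuclear genome encodes 7, surrounded by accessory subunits. Of the 38 genes with complex I names, 7 were higher, 16 lower and 15 not called, with a median log2 fold change of −0.33. After GC correction 16 were higher and 6 lower, and the median was 0.29. In the uncorrected test all 7 higher genes were accessory, and of the 7 core genes 0 were higher. *Ndufs7*, which carries the last iron-sulphur cluster before ubiquinone, had normalized counts of 2654, 2612 and 3034 for WT and 1222, 1187 and 894 for MMP13KO. The log2 fold change was −1.33 (standard error 0.16, edgeR adjusted p = 2.08e-04), but after GC correction it was −0.15 (edgeR adjusted p = 0.319). *Ndufv1*, the subunit that binds NADH, had 5386, 5152 and 5465 for WT and 2869.5, 2798 and 1959.6 for MMP13KO, with a log2 fold change of −1.07 (standard error 0.18, edgeR adjusted p = 9.74e-04), and of −0.12 (edgeR adjusted p = 0.424) after GC correction. The genotypes did not overlap in either gene, and neither kept its lower call with the correction. *Ndufs1*, *Ndufs3*, *Ndufs8* and *Ndufv2*, core genes for further iron-sulphur clusters or their scaffold, were not called, with log2 fold changes of 0.20, −0.33, −0.22 and 0.32, and of these *Ndufs3* and *Ndufs8* were higher after GC correction, at 0.38 (edgeR adjusted p = 0.0443) and 0.58 (edgeR adjusted p = 0.0266). *Ndufs1* and *Ndufv2* were called higher with length correction, at 0.64 (edgeR adjusted p = 0.043) and 0.81 (edgeR adjusted p = 0.00566). *Ndufv2* was also called higher with upper-quartile factors, at 0.52 (edgeR adjusted p = 0.0442).

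Accessory subunits of complex I included larger changes in both directions. *Ndufa8*, in the intermembrane space, had normalized counts of 1737, 1603 and 1570.3 for WT and 717, 749.9 and 436 for MMP13KO. Every MMP13KO sample was below every WT sample, with a log2 fold change of −1.36 (standard error 0.20, edgeR adjusted p = 4.67e-04). *Ndufb10*, of the membrane arm, had 3211, 2726 and 3351 for WT and 1399, 1382 and 972 for MMP13KO (log2 fold change −1.30, standard error 0.18, edgeR adjusted p = 3.35e-04) and *Ndufa10*, on the matrix face of that arm, had 4274, 3949.9 and 4122 for WT and 2006, 2043 and 1448 for MMP13KO (log2 fold change −1.17, standard error 0.17, edgeR adjusted p = 4.59e-04). In both, every MMP13KO sample again lay below every WT sample. The 3 genes fell and kept their calls after GC correction, at −0.61, −0.46 and −0.58, but *Ndufa10* lost its call with GC and length correction together, at −0.18 (edgeR adjusted p = 0.437). In the other direction, *Ndufs4*, a subunit of the NADH-oxidizing arm whose loss causes Leigh-like disease in mice, had 376, 272 and 390.2 for WT and 973, 880.1 and 649 for MMP13KO and rose by 1.27 (standard error 0.20, edgeR adjusted p = 6.62e-04) on the log2 scale. *Ndufa2*, of the same arm, had 430.5, 247 and 311 for WT and 908, 956 and 628 for MMP13KO (log2 fold change 1.33, standard error 0.23, edgeR adjusted p = 0.00113). *Ndufa5*, also in the matrix arm, had 437, 229 and 323 for WT and 926, 881 and 481 for MMP13KO (log2 fold change 1.22, standard error 0.28, edgeR adjusted p = 0.00537), and *Ndufb11*, of the membrane arm, had 653, 374 and 516 for WT and 1162, 1230.4 and 898 for MMP13KO (log2 fold change 1.09, standard error 0.21, edgeR adjusted p = 0.00208). In all 4 genes that rose, the lowest MMP13KO sample was number 6 and still lay above the highest WT sample. Across the 90 members, MMP13KO 6 was the lowest of its genotype in 86 and WT 4 the lowest of its genotype in 82. Without MMP13KO 6 the members higher and lower numbered 17 and 33, and the median log2 fold change was −0.16, while 10 were higher without WT 4, without WT 5 or without MMP13KO 1.

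The other accessory genes of complex I were called at smaller sizes. *Ndufb4* and *Ndufb3*, of the membrane arm, were higher at 0.56 and 0.85 on the log2 scale and stayed higher after GC correction at 1.15 and 0.71. Of the lower ones, *Ndufb6*, *Ndufc1* and *Ndufab1* (the acyl carrier protein of the mitochondrion) kept their calls, moving from −0.90, −0.73 and −0.57 to −0.68, −0.97 and −0.66 with the correction. *Ndufv3*, *Ndufs5*, *Ndufa3*, *Ndufa11* and *Ndufa9* lost theirs, moving from log2 fold changes of −0.89, −0.64, −0.63, −0.60 and −0.56 to 0.0095, −0.36, −0.13, 0.45 and −0.37. *Ndufb7* was lower at −0.67 (edgeR adjusted p = 0.00380) and higher after GC correction at 0.52 (edgeR adjusted p = 0.00977). Among the accessory genes that were not called, *Ndufa13*, which is also known as a regulator of cell death, went from −0.28 to 0.93 (edgeR adjusted p = 0.0137), and *Ndufs6*, whose product binds zinc, from 0.096 to 0.94 (edgeR adjusted p = 0.00596).

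The 8 Ndufaf genes encode assembly factors of complex I. At an adjusted p under 0.05, 0 of 8 were called in edgeR, DESeq2 or limma, 0 of 8 had an unadjusted p under 0.05 in edgeR, and after GC correction 2 were higher and 1 lower. Uncorrected their log2 fold changes ran from −0.49 to 0.22, and the median of −0.031 turned positive under several settings. Their levels per kb were low, from 3.92 to 8.39 CPM per kb in WT.

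Complex II, succinate dehydrogenase, is the smallest complex and is entirely nuclear-encoded. *Sdha*, which binds the flavin, had normalized counts of 9903, 7918 and 8677 for WT and 5591, 5765 and 3121 for MMP13KO, with a log2 fold change of −0.87 (standard error 0.24, edgeR adjusted p = 0.0123). *Sdhb*, which holds the iron-sulphur clusters, had 4130.3, 3100.1 and 3751 for WT and 2447, 2412 and 1707 for MMP13KO and a log2 fold change of −0.74 (standard error 0.19, edgeR adjusted p = 0.00795). *Sdhc*, an anchor in the membrane, had 4420.3, 4005 and 4331 for WT and 2339.8, 2279 and 1635 for MMP13KO and a log2 fold change of −1.03 (standard error 0.17, edgeR adjusted p = 0.00100). In these 3 genes every MMP13KO sample lay below every WT sample. *Sdhd*, the other anchor, overlapped between the genotypes at 1830.1, 1002 and 1178 for WT and 1917, 1925 and 1096 for MMP13KO, with a log2 fold change of 0.30 (standard error 0.26, edgeR adjusted p = 0.363). After GC correction *Sdha* and *Sdhc* stayed lower at −0.65 (edgeR adjusted p = 0.0146) and −0.77 (edgeR adjusted p = 8.11e-04), and *Sdhb* was at 0.058 (edgeR adjusted p = 0.774). With GC and length correction together the calls of *Sdha* and *Sdhc* were lost as well, at −0.22 (edgeR adjusted p = 0.344) and −0.29 (edgeR adjusted p = 0.2), and that of *Sdha* also with length correction alone, at −0.44 (edgeR adjusted p = 0.0548), and with scaling by total counts, at −0.70 (edgeR adjusted p = 0.132). *Sdhd* was called higher with length correction alone, at 0.66 (edgeR adjusted p = 0.0331), and with GC and length correction together, at 0.79 (edgeR adjusted p = 0.012). The median of complex II was −0.81, and −0.30 after GC correction.

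Complex III passes electrons from ubiquinol to cytochrome c. Of its 8 genes 2 were higher and 3 lower, with a median log2 fold change of 0.26, and after GC correction 3 were higher and 2 lower, with a median of 0.47. Its 2 core proteins, which face the matrix, went in opposite directions. *Uqcrc1* (chromosome 9, from 108936633 to 108949623) had normalized counts of 9808, 10183 and 10495 for WT and 4334, 4260.1 and 2896 for MMP13KO and a log2 fold change of −1.41 (standard error 0.19, edgeR adjusted p = 3.59e-04). *Uqcrc2* (chromosome 7, from 120635176 to 120659524) had 2228, 981 and 1563 for WT and 3413, 3339 and 2305 for MMP13KO and a log2 fold change of 0.93 (standard error 0.28, edgeR adjusted p = 0.0178). The genotypes did not overlap in either gene. The higher call of *Uqcrc2* was lost without WT 4, at 0.63 (edgeR adjusted p = 0.0703), without WT 5, at 0.84 (edgeR adjusted p = 0.0645), and without MMP13KO 1, at 0.77 (edgeR adjusted p = 0.0504). *Uqcrfs1*, the Rieske iron-sulphur protein, had 5454, 5017 and 5312 for WT and 2743, 2609.8 and 1637 for MMP13KO and a log2 fold change of −1.17 (standard error 0.20, edgeR adjusted p = 0.00118). *Uqcrh*, the hinge protein at the cytochrome c site (chromosome 4, from 116066965 to 116075071), rose, with 777, 525 and 709.9 for WT and 2441, 2325 and 1612 for MMP13KO and a log2 fold change of 1.67 (standard error 0.20, edgeR adjusted p = 2.08e-04). After GC correction all 4 kept their direction and call, at −0.39, 0.74, −0.94 and 2.03, but with GC and length correction together *Uqcrc1* was at −0.053 (edgeR adjusted p = 0.817). *Uqcr11*, a small membrane subunit, was lower at −0.59 (edgeR adjusted p = 0.0325), and at 0.52 (edgeR adjusted p = 0.0585) after GC correction. *Uqcr10* and *Uqcrb*, other small subunits, were not called at 0.58 and 0.50. *Cyc1*, the cytochrome c1 gene of complex III that lies outside the symbol rule, had 3676, 4016 and 3915 for WT and 1656, 1614 and 1053 for MMP13KO and a log2 fold change of −1.42 (standard error 0.19, edgeR adjusted p = 2.94e-04), which is without GC correction.

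Complex IV, cytochrome c oxidase, held the 2 largest rises among all members in the uncorrected test. *Cox7b* (chromosome X, from 106015700 to 106022450), a small subunit with 1 membrane span, had normalized counts of 498, 339 and 482 for WT and 2100.4, 2041 and 1462 for MMP13KO. *Cox7a2* (chromosome 9, from 79755361 to 79759878), the general isoform of subunit VIIa, had 346, 258 and 316 for WT and 1477, 1254 and 1087 for MMP13KO. Every MMP13KO sample was above every WT sample in both, with log2 fold changes of 2.09 (standard error 0.20, edgeR adjusted p = 8.66e-05) and 2.06 (standard error 0.17, edgeR adjusted p = 5.22e-05). *Ndufa4* (chromosome 6, from 11900292 to 11907497), the complex IV subunit with a complex I name, had 843, 582 and 706 for WT and 2801, 2625 and 1693 for MMP13KO and a log2 fold change of 1.74 (standard error 0.22, edgeR adjusted p = 2.18e-04). *Cox6c*, another small membrane subunit, had 963, 804 and 901 for WT and 2417, 2582 and 1783 for MMP13KO and a log2 fold change of 1.35 (standard error 0.17, edgeR adjusted p = 2.35e-04). The genotypes did not overlap in either. These 4 genes rose after GC correction as well, by 1.61, 2.62, 1.50 and 1.45 on the log2 scale, where *Uqcrh*, *Ndufa2* and *Ndufb11*, at 2.03, 1.88 and 1.71, stood above *Cox7b*.

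*Cox7c*, a further small membrane subunit of complex IV, was higher at a log2 fold change of 0.77 (standard error 0.21, edgeR adjusted p = 0.0130). Several larger general subunits were lower. *Cox5a*, on the matrix side, had normalized counts of 4405, 3779.7 and 4283 for WT and 2015, 1829 and 1268 for MMP13KO and a log2 fold change of −1.28 (standard error 0.19, edgeR adjusted p = 5.13e-04), and stayed lower after GC correction at −1.01 (edgeR adjusted p = 6.22e-04). *Cox4i1*, the general isoform of subunit IV and the highest complex IV member per kb in WT, had 8534, 7243 and 8898 for WT and 4569, 4378 and 3098 for MMP13KO, with a log2 fold change of −1.03 (standard error 0.19, edgeR adjusted p = 0.00180) and, after GC correction, of 0.018 (edgeR adjusted p = 0.929). In both genes the genotypes did not overlap. *Cox5b*, which binds zinc, was lower at a log2 fold change of −1.01 (standard error 0.18, edgeR adjusted p = 0.00146), and stayed lower after GC correction at −0.73 (edgeR adjusted p = 0.00235). *Cox6a1*, *Cox6b1*, *Cox7a2l* and *Cox8a* were not called, at −0.26, −0.34, −0.047 and 0.033, while *Cox6a1* and *Cox8a* were higher after GC correction, at 0.87 (edgeR adjusted p = 0.00122) and 1.13 (edgeR adjusted p = 2.99e-04). Among the 16 complex IV genes tested, 4 were higher and 7 lower, with a median of −0.30, and after GC correction 6 were higher and 3 lower, with a median of 0.37.

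**Figure D2:**
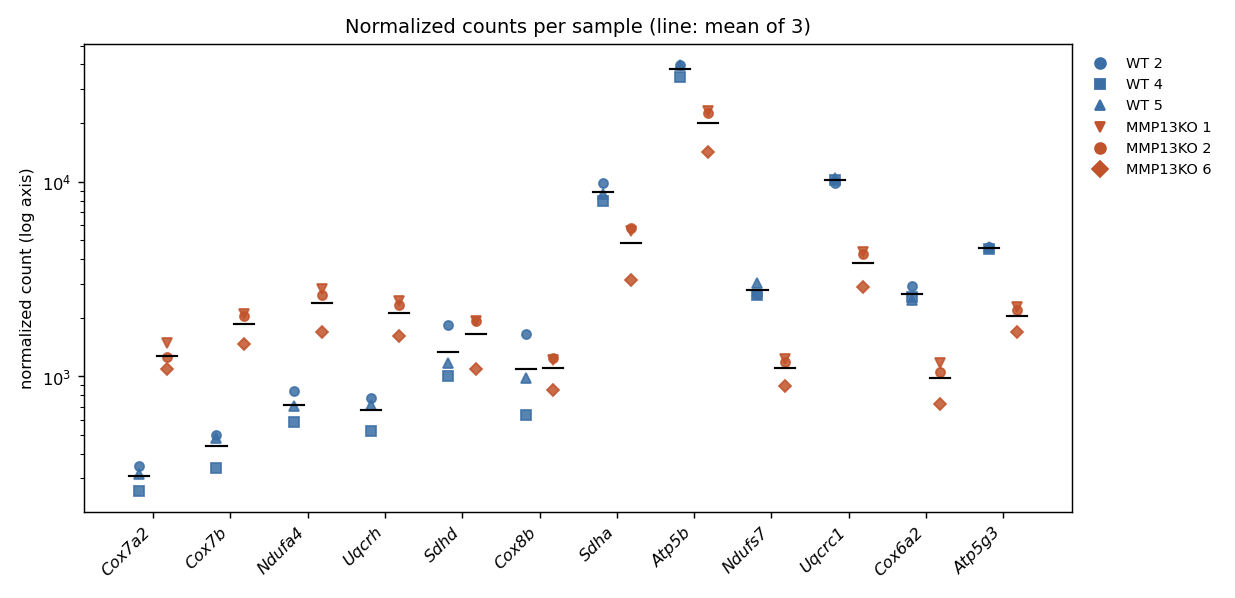
Normalized counts (log axis) of 12 members in each sample, WT in blue and MMP13KO in red with a mark for each sample number and a line for the mean. The genotypes are apart for *Cox7a2*, *Cox7b*, *Ndufa4* and *Uqcrh* (MMP13KO higher) and for *Sdha*, *Atp5b*, *Ndufs7*, *Uqcrc1*, *Cox6a2* and *Atp5g3* (lower), and overlap for *Sdhd* and *Cox8b*.

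Isoform pairs of complex IV were compared as ratios within a library, which do not depend on how libraries are scaled. The ratio of *Cox7a1* (muscle isoform) to *Cox7a2* (general isoform), with levels per kb of principal transcript, was 16.0, 15.9 and 17.2 in WT and 2.08, 2.23 and 1.87 in MMP13KO. It was 7.98-fold lower in MMP13KO, and its samples lay far closer together within a genotype than between them. *Cox7a1* itself had normalized counts of 3306, 2454 and 3244 for WT and 1832, 1667 and 1211 for MMP13KO and a log2 fold change of −0.93 (standard error 0.19, edgeR adjusted p = 0.00292), which was −0.15 (edgeR adjusted p = 0.473) after GC correction, while *Cox7a2* rose by 2.06. On the log2 scale the ratio changed by −3.00, and by −2.77 after GC correction.

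For *Cox6a2* (muscle) over *Cox6a1* (general) the ratio was 1.98, 1.78 and 1.51 in WT and 0.869, 0.887 and 0.568 in MMP13KO, 2.30-fold lower in MMP13KO without overlap. On the log2 scale the ratio changed by −1.20, and by −1.67 after GC correction, where *Cox6a1* was higher as given above. *Cox6a2* (chromosome 7, from 128205435 to 128206387) had normalized counts of 2925, 2570.1 and 2459 for WT and 1170.2, 1051 and 725 for MMP13KO and a log2 fold change of −1.43 (standard error 0.19, edgeR adjusted p = 2.85e-04), the lowest of all members in the uncorrected test, and −0.79 (edgeR adjusted p = 0.00299) after GC correction. The remaining muscle pair, *Cox8b* over *Cox8a*, had ratios of 2.02, 0.849 and 1.12 in WT and 1.40, 1.42 and 1.14 in MMP13KO, which overlapped. *Cox8b* had 1657, 633 and 984 for WT and 1221, 1238 and 857 for MMP13KO, with WT 2 above and WT 4 below every MMP13KO sample, and a log2 fold change of 0.020 (standard error 0.30, edgeR adjusted p = 0.960), with a lower call after a length correction, at −0.57 (edgeR adjusted p = 0.0439). Of the 3 muscle isoform genes, *Cox6a2* and *Cox7a1* were called and *Cox8b* was not.

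Genes of the sarcomere and the muscle membrane were examined beside these isoforms. Of 20 skeletal muscle markers, 14 were lower in MMP13KO, 0 higher and 6 not called, with a median log2 fold change of −1.26. After GC correction 9 were lower and 1 higher, with a median of −0.79. Their summed level was 121238 to 141678 CPM in WT and 32027 to 70410.0 CPM in MMP13KO, and all 20 were detected in every sample. The part that muscle RNA has in the lower members was not tested. *Tcap*, a sarcomere protein with the smallest adjusted p of the list, had normalized counts of 18635, 24009.9 and 22164 for WT and 7062, 7806 and 4979 for MMP13KO and a log2 fold change of −1.71 (standard error 0.22, edgeR adjusted p = 2.79e-04). Other pairs of isoforms are not tied to muscle. *Cox6b2* over *Cox6b1* was 0.0482, 0.0930 and 0.0692 in WT and 0.0284, 0.0388 and 0.0334 in MMP13KO, *Cox4i2* (a lung isoform induced by low oxygen) over *Cox4i1* was 0.0257, 0.0280 and 0.0205 in WT and 0.0308, 0.0294 and 0.0469 in MMP13KO, and *Ndufa4l2*, also induced by low oxygen, over *Ndufa4* was 0.168, 0.599 and 0.442 in WT and 0.0459, 0.0302 and 0.103 in MMP13KO. The first and the last of these were lower and *Cox4i2* over *Cox4i1* was higher in every MMP13KO sample than in any WT sample. On the log2 scale *Ndufa4l2* over *Ndufa4* differed by −2.76, and by −1.37 after GC correction. *Cox6b2* over *Cox6b1* differed by −1.03, and by −0.56 after GC correction. *Cox4i2* over *Cox4i1* differed by 0.51, and by 0.30 without MMP13KO 6.

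In counts, *Cox6b2*, the testis isoform of subunit VIb, had normalized counts of 168, 175 and 176 for WT and 69.1, 83.8 and 55.0 for MMP13KO, with a log2 fold change of −1.30 (standard error 0.21, edgeR adjusted p = 8.71e-04), and −0.43 (edgeR adjusted p = 0.110) after GC correction. *Ndufa4l2* had 217, 533 and 478 for WT and 197, 121 and 268 for MMP13KO, with overlapping genotypes and a log2 fold change of −1.08 (standard error 0.35, edgeR adjusted p = 0.0263). That call was lost without WT 4, at −0.89 (edgeR adjusted p = 0.0894), and after GC correction, at 0.13 (edgeR adjusted p = 0.812). *Cox4i2* had 209.8, 194 and 175 for WT and 135, 123 and 139 for MMP13KO and a log2 fold change of −0.54 (standard error 0.17, edgeR adjusted p = 0.0243), which was lost without WT 4, at −0.58 (edgeR adjusted p = 0.0503), without MMP13KO 2, at −0.55 (edgeR adjusted p = 0.0618), and after GC correction, at 0.43 (edgeR adjusted p = 0.111). The exact permutation test of 3 against 3 samples, taken over both tails, cannot give a p below 0.1. Over the 7 ratios tested, that value was reached for 5, or 0.14 with Benjamini-Hochberg adjustment, and p was 0.9 for *Cox8b* over *Cox8a* and 0.3 for *Atp5g1* over *Atp5g3*.

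**Figure D3:**
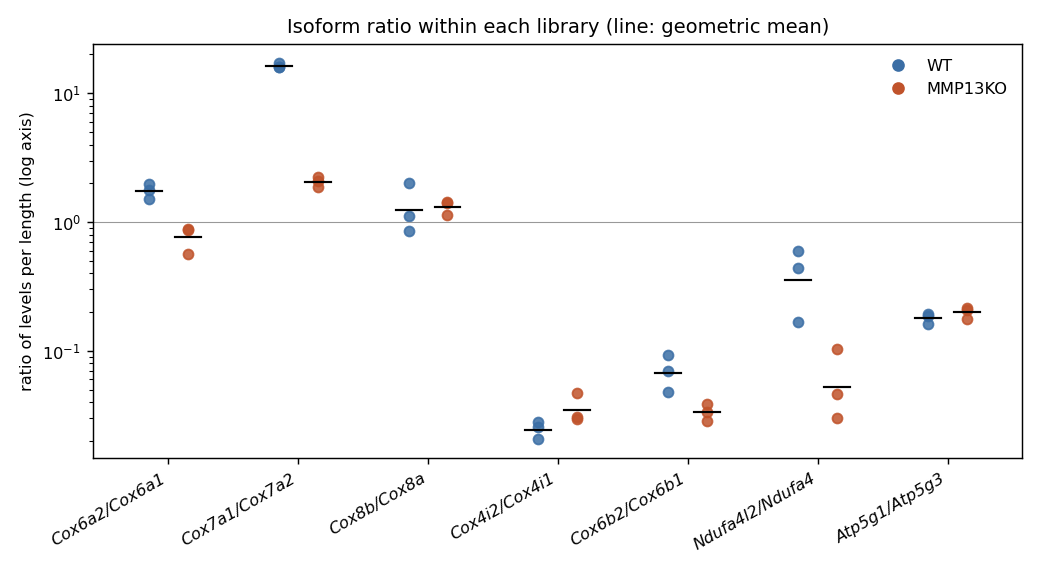
Ratio of the levels per kb of 7 isoform pairs in each library (log axis), WT in blue and MMP13KO in red, with a line for the geometric mean. *Cox7a1* over *Cox7a2* lies between 15.9 and 17.2 in WT and between 1.87 and 2.23 in MMP13KO, while *Cox8b* over *Cox8a* and *Atp5g1* over *Atp5g3* overlap.

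Complex V makes ATP in a catalytic head (F1) that is turned by a ring of c subunits in the membrane. Of 16 genes 9 were lower and 2 higher, with a median log2 fold change of −0.51. After GC correction 3 were lower and 4 higher, with a median of 0.10. Of the 5 genes of the head, 4 were lower and 0 higher. *Atp5b*, the catalytic beta subunit and the most abundant member per kb, had normalized counts of 39619, 34537 and 39549 for WT and 23105, 22522 and 14142 for MMP13KO. *Atp5a1*, the alpha subunit, had 30332, 26589 and 29529.5 for WT and 17973, 17519.7 and 11013 for MMP13KO. Both were lower without overlap, at a log2 fold change of −0.93 (standard error 0.24, edgeR adjusted p = 0.00920) and −0.89 (standard error 0.23, edgeR adjusted p = 0.00948), and after GC correction at −0.40 (edgeR adjusted p = 0.0683) and −0.47 (edgeR adjusted p = 0.0324), the latter call being lost with GC and length correction together, at −0.058 (edgeR adjusted p = 0.813). *Atp5d* and *Atp5e*, of the rotor's foot, were at a log2 fold change of −1.23 (standard error 0.17, edgeR adjusted p = 3.30e-04) and −0.68 (standard error 0.18, edgeR adjusted p = 0.0115), and after GC correction at −0.077 (edgeR adjusted p = 0.588) and 0.11 (edgeR adjusted p = 0.546). *Atp5c1*, the shaft of the rotor, was not called at −0.20.

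All 3 genes of the c ring, which encode the same mature protein behind different import sequences, were lower in the uncorrected test. *Atp5g3* had normalized counts of 4614, 4515 and 4629 for WT and 2278, 2194 and 1682 for MMP13KO, with a log2 fold change of −1.16 (standard error 0.16, edgeR adjusted p = 3.72e-04). *Atp5g1* had 5805, 4732 and 5628 for WT and 3220.4, 2982 and 1929 for MMP13KO, with a log2 fold change of −0.99 (standard error 0.21, edgeR adjusted p = 0.00318). Neither overlapped between the genotypes, and both kept their calls after GC correction, at −0.73 and −0.93, but *Atp5g1* lost its call with GC and length correction together, at −0.38 (edgeR adjusted p = 0.107), and with scaling by total counts, at −0.83 (edgeR adjusted p = 0.0606). *Atp5g2* had 1897, 1355 and 1548 for WT and 1281, 1204 and 1080.1 for MMP13KO and a log2 fold change of −0.43 (standard error 0.16, edgeR adjusted p = 0.0444), but rose after GC correction, at 0.52 (edgeR adjusted p = 0.0307). Its lower call was also lost without WT 2, at −0.36 (edgeR adjusted p = 0.120), without WT 5, at −0.53 (edgeR adjusted p = 0.0651), without MMP13KO 2, at −0.49 (edgeR adjusted p = 0.0652), and without MMP13KO 6, at −0.36 (edgeR adjusted p = 0.0785). Among the small membrane subunits, *Atp5j2*, subunit f, rose from 889, 520.0 and 641 in WT to 2032, 1915 and 1392 in MMP13KO, with a log2 fold change of 1.38 (standard error 0.22, edgeR adjusted p = 7.23e-04). *Atp5l*, subunit g, had 1335, 998 and 1138 for WT and 1850.0, 1778 and 1449.7 for MMP13KO, with a log2 fold change of 0.55 (standard error 0.16, edgeR adjusted p = 0.0161). Of the other stalk and membrane genes, *Atp5o* (the OSCP subunit) and *Atp5k* (subunit e) were lower at −0.62 and −0.59, and at 0.096 (edgeR adjusted p = 0.651) and 0.14 (edgeR adjusted p = 0.507) after GC correction. The call of *Atp5l* was lost without WT 4, at 0.41 (edgeR adjusted p = 0.107), without WT 5, at 0.46 (edgeR adjusted p = 0.112), without MMP13KO 1, at 0.42 (edgeR adjusted p = 0.104), and without MMP13KO 2, at 0.46 (edgeR adjusted p = 0.0786). *Usmg5*, a further small membrane subunit outside the symbol rule, had 135, 112 and 159 for WT and 1066, 953 and 655 for MMP13KO, with a log2 fold change of 2.72 (standard error 0.22, edgeR adjusted p = 4.62e-05).

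Levels per kb of principal transcript were then summed within each library to compare the complexes. Of the members' summed level, complex V held 34.1, 36.0 and 35.5% in WT and 31.3, 31.2 and 30.8% in MMP13KO, and complex III 9.85, 9.79 and 9.71% in WT and 12.0, 11.9 and 11.6% in MMP13KO. As means these were 35.2% ± 0.962 for WT and 31.1% ± 0.295 for MMP13KO (SD, n = 3 each) for complex V, and 9.78% ± 0.0699 for WT and 11.8% ± 0.230 for MMP13KO (SD, n = 3 each) for complex III. Every MMP13KO sample lay below every WT sample for complex V and above for complex III, and the same held after GC correction, with differences of −4.74 and 1.93 percentage points. A share is a part of the whole, so a lower share of a complex raises those of others. The summed level of complex III itself overlapped, at 858, 668 and 789 CPM per kb in WT and 794, 761 and 514 in MMP13KO. After GC correction it was 708, 530 and 632 in WT and 886, 845 and 710 in MMP13KO. The summed level of complex V was 2976, 2456 and 2881 CPM per kb in WT and 2069, 2000 and 1367 in MMP13KO. After GC correction the complex V sums overlapped, at 2508, 1974 and 2350 in WT and 2329, 2233 and 1906 in MMP13KO. Complex II held 4.02% ± 0.144 for WT and 3.48% ± 0.189 for MMP13KO (SD, n = 3 each), without overlap, a difference of −0.54 percentage points, and of −0.83 after GC correction. Its summed level after GC correction overlapped, at 312, 232 and 265 CPM per kb in WT and 255, 253 and 199 in MMP13KO. Complex IV held 24.4% ± 0.335 for WT and 24.5% ± 0.796 for MMP13KO (SD, n = 3 each), with overlapping samples. Complex I held 26.1% ± 0.499 for WT and 28.4% ± 0.253 for MMP13KO (SD, n = 3 each), but with *Ndufa4* and *Ndufa4l2* counted in complex IV the share of complex I was 25.3% ± 0.569 for WT and 25.8% ± 0.289 for MMP13KO (SD, n = 3 each), with overlapping samples, and that of complex IV 25.1% ± 0.267 for WT and 27.1% ± 0.771 for MMP13KO (SD, n = 3 each), without overlap. The summed level of complex I under its names also overlapped, at 2320, 1747 and 2110 CPM per kb in WT and 1867, 1837 and 1253 in MMP13KO. After GC correction it was 1909, 1359 and 1674 in WT and 2115, 2070 and 1756 in MMP13KO. With 3 samples a group, an exact test of such a share could not pass 0.05.

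**Figure D4:**
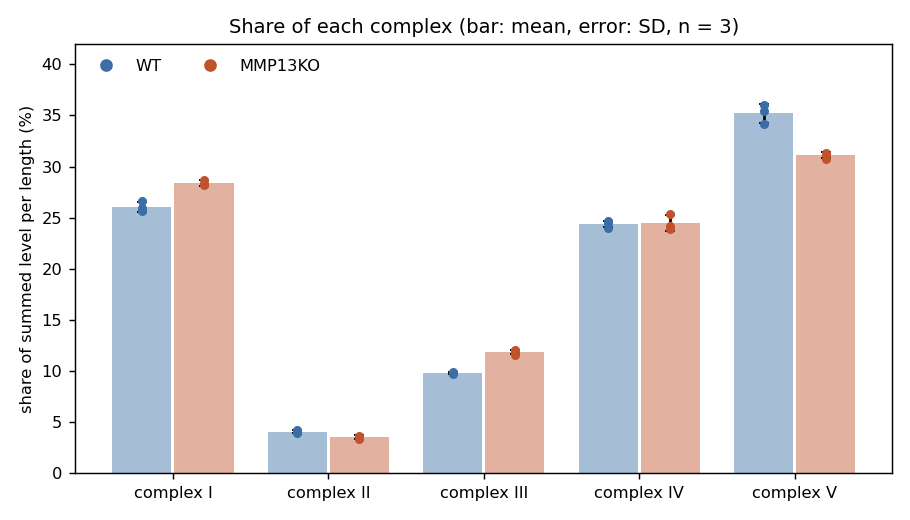
Share of each complex in the summed level per kb of all members, in percent, with bars for the mean, error bars for the SD (n = 3) and points for samples. The complex V share is lower and the complex III share higher in every MMP13KO sample than in any WT sample, while the complex I difference shrinks once *Ndufa4* is counted in complex IV.

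Levels of the members drew closer together in MMP13KO. The interquartile range of log2 level per kb over the 90 members was 2.10, 2.37 and 2.37 in WT and 1.85, 1.67 and 1.87 in MMP13KO, without overlap. These ranges are without GC correction, and none was taken over all genes, so the narrowing is not shown to be particular to the members. *Atp5b* stood highest in every sample, at 723 ± 55.6 in WT and 380.1 ± 95.7 in MMP13KO CPM per kb (SD, n = 3). *Cox7a2* stood at 17.0 ± 2.48 in WT and 70.6 ± 10.9 in MMP13KO CPM per kb. The members took 0.924, 0.752 and 0.864% of all counts in WT and 0.805, 0.739 and 0.354% in MMP13KO, and the value of MMP13KO 6 stands beside its satellite-like share of 46.1%.

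Many of these genes have processed copies in the genome, to which reads could be assigned. Annotated pseudogenes that matched the coding sequence at 80% identity or more over at least 50% of its length numbered 147, for 50 of the 92 members. Counts at the copies were 0.638 to 0.664% of the members' own in WT and 1.03 to 1.53% in MMP13KO. Among the 40 tested members without a copy, 1 was higher and 22 lower, among the 31 with 1 or 2 copies 6 were higher and 11 lower, and among the 19 with 3 or more copies 8 were higher and 5 lower. After GC correction these groups held 6 higher and 10 lower, 16 and 4, and 9 and 3. Adding the copies' counts to their source genes left 15 members higher and 37 lower. The values of *Cox7b*, *Ndufa4*, *Uqcrh* and *Cox6c*, each with 4 or more copies, are uncertain to the extent that reads were split between gene and copy, and reads of the copies within a gene's own count cannot be seen in this table. No copy of these genes held over 31.1 counts in any sample. The same limit holds for the other higher members with a copy, among them *Atp5j2* and *Ndufa5* with 3 or more copies each. Of these others, *Atp5l*, *Ndufb4* and *Cox7c* each have a copy at 100% identity. Those copies held 84.1, 40.0 and 58.5 counts in WT and 168, 185 and 76.0 in MMP13KO for *Atp5l*. For *Ndufb4* they held 124, 67.1 and 100 in WT and 189, 195 and 69.2 in MMP13KO, and for *Cox7c* 63.3, 39.5 and 57.6 in WT and 109, 113 and 39.6 in MMP13KO.

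When the members were put in order of GC content, the 30 lowest held 8 higher and 8 lower genes, the 30 in the middle 7 and 13, and the 30 highest 0 and 17. After GC correction the numbers were 9 and 8, 9 and 7, and 13 and 2. *Cox7a2* and *Ndufb11*, which rose in both fits, stood at 51.9% and 52.5% GC. The part that GC content has in the rises was not tested.

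**Figure D5:**
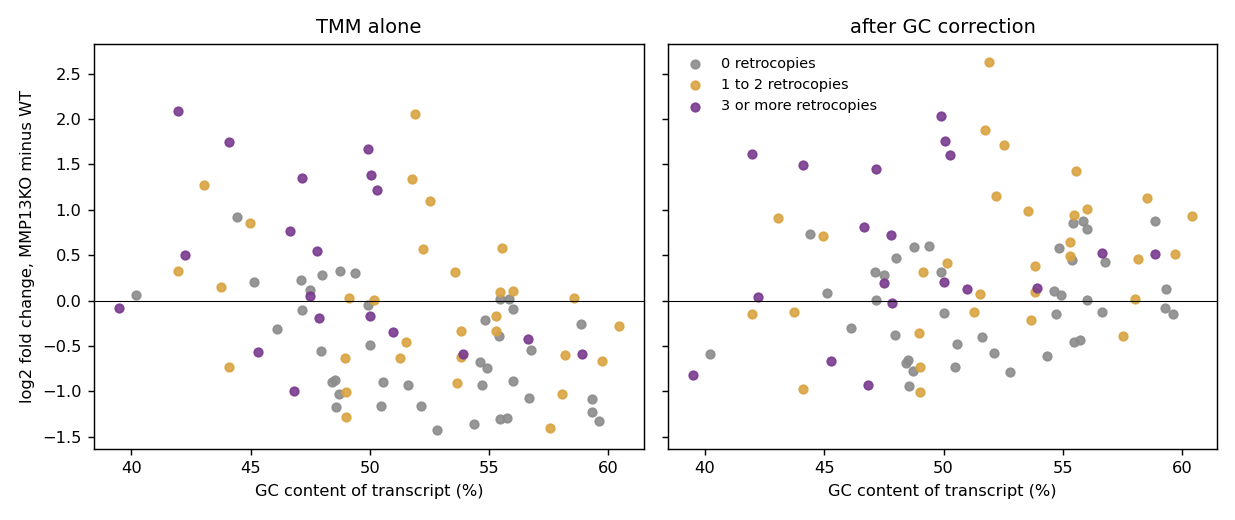
Log2 fold change of the 90 members against the GC content of their transcripts in percent, before (left) and after (right) GC correction, coloured by the number of processed copies. The downward trend at left, Spearman's rho −0.42, is 0.19 at right, and the genes that rose most stay high in both panels.

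Other genes of the mitochondrion were described from lists, and values of single genes are without GC correction unless stated. Assembly factors and partners of the complexes outside the symbol rule gave 8 higher and 16 lower of 41 tested (median log2 fold change −0.32), and 8 and 7 after GC correction (median −0.019). *Atpif1*, an inhibitor of complex V, rose, with a log2 fold change of 1.24 (standard error 0.15, edgeR adjusted p = 2.19e-04), and *Ecsit*, a complex I assembly factor, fell, with a log2 fold change of −1.40 (standard error 0.16, edgeR adjusted p = 1.52e-04). Genes of electron and ATP carriers gave 2 higher and 12 lower of 20 tested (median log2 fold change −0.57), and 5 and 6 after GC correction (median −0.19). *Coq8a*, of ubiquinone synthesis, was at a log2 fold change of −1.66 (standard error 0.20, edgeR adjusted p = 1.77e-04), and *Pdss1*, which starts the ubiquinone tail, was at a log2 fold change of 1.10 (standard error 0.19, edgeR adjusted p = 0.00127). The TCA cycle, which feeds NADH and succinate to the chain, gave 1 higher and 8 lower of 17 tested (median log2 fold change −0.51), and the same numbers after GC correction (median −0.34), with *Mdh2*, malate dehydrogenase, at a log2 fold change of −1.19 (standard error 0.19, edgeR adjusted p = 7.40e-04) and *Dld*, a shared subunit of the oxo-acid dehydrogenases, at a log2 fold change of 1.06 (standard error 0.27, edgeR adjusted p = 0.00831). Biogenesis regulators gave 4 higher and 8 lower of 20 tested (median log2 fold change −0.26), and 1 and 5 after GC correction (median 0.022). *Esrra*, an orphan nuclear receptor and activator of mitochondrial genes, had normalized counts of 3156, 3518 and 3481 for WT and 995, 1021 and 728 for MMP13KO, with a log2 fold change of −1.89 (standard error 0.17, edgeR adjusted p = 6.46e-05), and stayed lower after GC correction at −0.57 (edgeR adjusted p = 0.00491). *Mterf1a*, of mitochondrial transcription, was higher at a log2 fold change of 1.02 (standard error 0.27, edgeR adjusted p = 0.0108), and its call was lost after GC correction at 0.48 (edgeR adjusted p = 0.260). Genes of the mitochondrial ribosome gave 13 higher and 28 lower of 78 tested (median log2 fold change −0.26), and 25 and 6 after GC correction (median 0.24), with *Mrps18c* at a log2 fold change of 2.10 (standard error 0.24, edgeR adjusted p = 1.54e-04) and *Mrpl4* at a log2 fold change of −1.15 (standard error 0.16, edgeR adjusted p = 3.48e-04), the latter at 0.063 (edgeR adjusted p = 0.692) after GC correction. The 13 subunits encoded by the mitochondrion itself were not analysed here.

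Markers of other cell types also differed between the genotypes. Of 8 neutrophil markers all 8 were higher, at a summed level of 132 to 277 CPM in WT and 693 to 1714 CPM in MMP13KO, with *S100a9*, a calcium-binding protein of neutrophils, at a log2 fold change of 5.19 (standard error 0.40, edgeR adjusted p = 3.96e-05). Of 9 erythroid markers tested 7 were higher and 0 lower, and 9 higher after GC correction, at 899 to 1467 and 2131 to 3999 CPM. Of 10 odontoblast and pulp markers 2 were higher and 4 lower, at 55376 to 62078 and 17198 to 22709 CPM, and after GC correction 3 were higher and 1 lower. *Phex*, a regulator of mineralization, was at a log2 fold change of 1.68 (standard error 0.30, edgeR adjusted p = 0.00135) and *Col1a1*, a chain of type I collagen, at a log2 fold change of −2.16 (standard error 0.34, edgeR adjusted p = 6.68e-04). Of 7 adipocyte markers tested 3 were higher and 0 lower, and 2 and 0 after GC correction. Their summed level overlapped between the genotypes, at 24.6 to 55.3 and 40.3 to 52.0 CPM. Their log2 fold changes were above 0 in 4 and below 0 in 3, with a median of 0.045. The adipocyte hormone gene *Adipoq* was at a log2 fold change of 2.09 (standard error 0.31, edgeR adjusted p = 5.49e-04). Of 2 spermatogenic markers tested, *Ldhc*, a testis lactate dehydrogenase, was higher at a log2 fold change of 2.56 (standard error 0.68, edgeR adjusted p = 0.0105). The 8 markers listed summed to only 0.474 to 0.804 CPM in WT and 1.62 to 3.97 CPM in MMP13KO. Counts at receptor genes were also higher in MMP13KO, as given above, and the part of such background in this call was not tested. All defining markers of blood, muscle and pulp were above 0 in every sample. How far a change in the mix of cells accounts for the members' differences was not tested.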

How the data were processed

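The authors deposited estimated counts per Ensembl gene, fractional where reads were shared, and log2 values scaled by DESeq size factors and centred on the median of each gene, both made in Strand NGS from reads on mm10 (the build and DESeq as named in the submitters' processing notes). The aligner and its settings were not given in the sources used here. For testing, the values were rounded to integers and fitted with edgeR 4.0.16 (R 4.3.3, filterByExpr by genotype, TMM factors, quasi-likelihood test, Benjamini-Hochberg adjustment over all genes tested), with 3 WT against 3 MMP13KO libraries. A normalized count is the count scaled by these factors to a common library size. Levels between genes are TMM-scaled CPM per kb of principal transcript (GENCODE M21, GRCm38). The GC correction is a loess fit (span 0.4) of each library's log2 CPM deviations on transcript GC content, made on genes above a mean log2 CPM of 3, and entered as an offset. Isoform ratios were compared by exact permutation over both tails. Alternatives used DESeq2 1.42.0, limma 3.58.1 on the deposited log2 values, other scalings and filters, subtraction of background measured at 1452 receptor genes, length corrections and leaving out each library. Processed copies were sought by blastn. The scripts were tested on simulated data, and as the edgeR step recovered fewer changed genes than the limit first set, that limit was lowered. Members and lists were chosen with earlier results of these data known. Named members were the isoform genes, the core subunits, the 2 of each complex with the smallest adjusted p in each direction, the members over 2-fold (at most 10 in each direction) and those that failed the filter. Named genes outside the members were, for each list, the one with the smallest adjusted p in each direction. *Cyc1*, *Atpif1*, *Cox5b*, *Cox7c*, the accessory genes given by GC-corrected value and the other small subunits of complexes III and V were added after their values were seen. Some genes that this rule takes in are not reported here. Promoters came from RefSeq (GRCm38.p6).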

Additional observations from a re-analysis of the deposited data

How the results depend on the processing

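No paired analysis was possible because the genotypes share only replicate number 2. Another normalization factor, DESeq2, limma or the study's own procedure left 14 to 18 members higher and 31 to 41 lower, and scaling by total counts left 13 and 15. Across all genes the median log2 change was 0.10 with TMM factors, 0.32 with upper-quartile factors, 0.21 with total counts and 0.76 with GC and length correction. GC correction gave 31 members higher, 17 lower and 14 over 2-fold, with medians of 0.16 over members, 0.29 in complex I, −0.30 in II, 0.37 in IV and 0.10 in V. It reversed single genes, to 0.11 for *Atp5e*, 0.52 for *Atp5g2*, 0.018 for *Cox4i1*, 0.43 for *Cox4i2*, 0.87 for *Cox6a1*, 0.13 for *Ndufa4l2*, 0.38 for *Ndufs3*, 0.58 for *Ndufs8* and 0.058 for *Sdhb*. GC and length correction together gave 24 higher, 14 lower and 16 over 2-fold, with medians of 0.21 over members, 0.24 in I, −0.00150 in II, 0.21 in IV and 0.0146 in V, and genes at 0.19 for *Atp5d*, 0.38 for *Atp5g2*, 0.30 for *Cox4i2*, 0.24 for *Ndufa4l2*, 0.48 for *Ndufs3*, 0.67 for *Ndufs8*, 0.22 for *Ndufv1* and 0.22 for *Sdhb*. That pair of corrections ended the calls of *Atp5a1*, *Atp5b*, *Atp5g1*, *Atp5l*, *Cox4i1*, *Cox6b2*, *Ndufa10*, *Ndufs7*, *Sdha*, *Sdhc* and *Uqcrc1* without a change of sign, and scaling by total counts those of *Atp5a1*, *Atp5b*, *Atp5e*, *Atp5g1*, *Atp5g2*, *Atp5l*, *Cox4i1*, *Cox4i2*, *Cox7a1*, *Sdha* and *Sdhb*. Length correction alone gave 23 higher, a complex II median of −0.43 and −0.57 for *Cox8b*. The Ndufaf median, near 0, was 0.16 with upper-quartile factors, 0.11 with total counts, 0.090 with at least 10 counts in every sample, 0.14 with GC, 0.19 with length, 0.14 with both and 0.077 with background subtraction. The log2 ratio of *Cox8b* to *Cox8a* was −0.26, −0.37 and −0.60 with GC, length and both, and that of *Atp5g1* to *Atp5g3* was −0.20 with GC. With *Ndufa4* and *Ndufa4l2* in complex IV, an alternative added after seeing the data, the shares differed by 0.50 (I) and 1.94 (IV) percentage points, and with GC correction of the shares, also added later, by 2.75 (I), −0.83 (II) and 0.88 (IV). Over all genes, those changed at any fold numbered 12665 and over 2-fold 7381, against 19292 and 14325 without a filter, 24010 and 16035 by the study's procedure and, over 2-fold, 4666 with at least 10 counts in every sample. The causes of these changes were not tested. Leaving out each library in turn gave 10 to 17 members higher, 33 to 38 lower and 23 to 31 over 2-fold, an Ndufaf median from −0.22 to 0.11, a log2 ratio of *Cox8b* to *Cox8a* from −0.20 to 0.43 and a complex IV share difference from −0.33 to 0.43 percentage points. Of the 53 calls, 40 held in all 6 such fits.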
